A study of Avicennia germinans with 18 samples.

Results

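Among the transcripts of the mangrove tree Avicennia germinans, 150 were examined that stood at similar levels in the leaf and the stem of humid-forest seedlings and were lowest, relative to both, in their roots. They were chosen among the 29854 transcripts whose identifiers begin with Ag_, in a table of 47821 transcripts. Levels were counts divided by the library total and scaled to 1000000 reads (CPM), and L, S and R denote the mean CPM of the 3 humid leaf, stem and root libraries. A transcript was eligible when L and S lay within 2-fold of each other, which held for 19205, and the 150 with the largest score, log2((the lower of L and S + 1)/(R + 1)), were taken. The humid libraries thus chose the members, and their values are given as a description. The arid libraries played no part in the choice, and the main tests used those alone.

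The study collected leaves, stems and roots from 6 field-grown seedlings, 3 from a forest labelled humid and 3 from one labelled arid. Both groups were otherwise handled alike: the seedlings were potted in mangrove soil and kept for 72 hours in shade with ample water before harvest. The series describes the forests as differing in fresh water, salt, sunlight and temperature together, so none of these can be told apart from the others, and each forest is 1 site. The design had 6 groups of 3 libraries, 1 library per seedling and organ, and no genotype or age beyond the seedling stage is given.

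A seedling shoot consists of leaves, which carry most of the photosynthesis, and a stem, whose outer tissue is green while young and which shares with the leaf a waxy outer skin and veins. Roots take up water and ions, hold no working chloroplasts in most plants, and make little of the RNA for photosynthesis that green shoot tissue makes. Avicennia germinans also excludes salt at the root and secretes it through glands on the leaf. The files pair no identifier with a gene name, so the roles of the 150 transcripts are not given here, and the labelled organs could not be checked against known marker genes. RNA was measured in whole organs, where fewer cells of a type and less RNA per cell cannot be told apart.

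Library totals ranged from 3.07 to 23.7 M reads (M, mega), and the shallowest was humid root 2. A count of 0 there allows up to 0.979 CPM, and 0.127 CPM in the deepest library, humid leaf 3, for counting error only. Of the arid libraries, 2 stood apart in what follows. Arid root 1 carried high levels of shoot transcripts, and arid stem 2 carried low levels of the members. The tests and several of the medians that rest on either are therefore also given without it. The labels list the same 6 barcodes for each of 3 sets of libraries. If each set was 1 organ, the sequencing pool and the organ cannot be told apart.

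In the humid forest the members had a median level of 45.4 CPM in leaf, with quartiles of 25.7 and 98.3 CPM. In stem the median was 39.9 CPM, with quartiles of 22.4 and 74.98 CPM. In root it was 0.967 CPM, with quartiles of 0.319 and 3.15 CPM. These values follow from the rule. Within the 2-fold limit the leaf mean was the higher for 116 members and the stem mean for 34. The score ranged from 3.08 to 8.68 with a median of 3.80. In 6 members the lower shoot mean was under 10 CPM, and in 28 it exceeded 100 CPM. No read was counted in any humid root for 16 members, and humid roots 1, 2 and 3 had 31, 52 and 49 members at 0.

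The highest score belonged to Ag_23852, which had 636, 761 and 1302 CPM in humid leaves 1, 2 and 3. Its humid stems had 348, 665 and 666 CPM, and its humid roots 0, 0.653 and 0.453 CPM. Next came Ag_23709, with 216, 535 and 719 CPM in the humid leaves and 170.2, 522 and 458 CPM in the stems. Its humid roots lay between 0.302 and 0.979 CPM. In both transcripts the leaf and stem levels overlapped and every root lay far below them. The last transcript inside the limit, Ag_3255, had a score of 3.083, with means of 17.1 CPM in leaf, 11.8 CPM in stem and 0.509 CPM in root. The first outside, Ag_361, had a score of 3.075, with 22.1, 39.6 and 1.74 CPM. The border of the list is therefore not a gap.

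**Figure D1:**
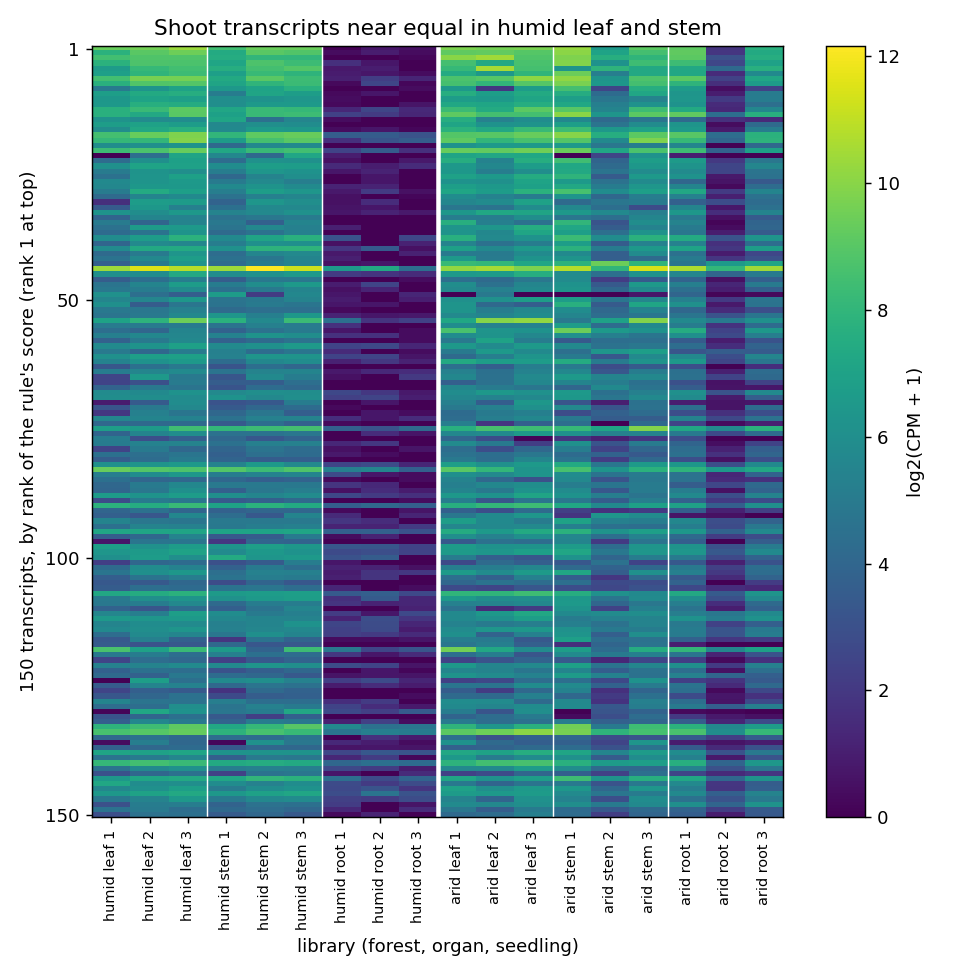
Level of each of the 150 transcripts (rows, by rank of the score) in each of the 18 libraries (columns), as log2(CPM + 1). The 3 humid roots are dark because the rule asked for it, while arid roots 1 and 3 are much brighter than arid root 2, and arid stem 2 is darker than arid stems 1 and 3.

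Together the members took 1.19%, 1.80% and 2.22% of the reads of humid leaves 1, 2 and 3, and 0.961%, 1.75% and 1.68% of those of humid stems. Humid roots spent 0.0578%, 0.0633% and 0.0332% of their reads on them. In the arid forest, the share was 1.96%, 1.81% and 2.05% in leaves, with a mean of 1.94 ± 0.12% (SD, n = 3). Arid stems 1, 2 and 3 had 2.62%, 0.588% and 1.76%, a mean of 1.66 ± 1.02% (SD, n = 3). Arid roots 1, 2 and 3 had 1.32%, 0.131% and 0.728%, a mean of 0.727 ± 0.596% (SD, n = 3). Arid leaves thus lay within the range of the humid leaves, arid stem 2 lay below every other shoot library, and all arid roots lay above all humid roots. The share in arid root 1 exceeded that in arid stem 2.

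The first question put to the arid libraries was whether leaf and stem again stood above root. In seedling 2 the leaf exceeded the own root for 150 of 150 members, against 44.5% of all Ag_ transcripts tested, and the stem for 142, against 41.2%. In seedling 3 these counts were 138, against 43.4%, and 128, against 38.3%. In seedling 1 they were 125, against 50.8%, and 130, against 41.2%. Both shoot organs exceeded the own root in all 3 arid seedlings for 95 members, against 8.39%. By group means, arid leaf lay above arid root for all members but 1, against 45.5% of Ag_ transcripts, and arid stem above arid root for 141, against 40%. Without arid root 1 these counts were 150 and 149.

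The quasi-likelihood test (edgeR) on the 9 arid libraries covered 38268 transcripts that passed a filter on low counts, all but 1 of the members among them. The remaining member, Ag_10718, was not tested. For leaf over root the members had a median log2 fold change of 1.62, against -0.03 over all transcripts tested, and 148 of the members tested were above 0, against 48.3% of all. None passed a Benjamini-Hochberg adjusted p of 0.05 in this edgeR test in either direction, where 0.233% of all transcripts were called higher and 0.397% lower. The smallest adjusted p among the members was 0.0509, and 62 had an unadjusted p under 0.05 with a higher leaf level, against 7.81% of all, and none with a lower one, against 6.83%. For stem over root the median was 1.53, against 0.02 over all, and 145 of them were above 0, against 50.8%. No member was called there by edgeR, and none of all transcripts was called higher (0%) or lower (0%). The smallest adjusted p was 0.0982, and 45 members had an unadjusted p under 0.05 with a higher stem level, against 7.59% of all, and none with a lower one, against 6.81%. With all 18 libraries in the edgeR fit, the humid ones that chose the members included, 16 members were called for leaf over root, against 1.91% of all transcripts, and 4 for stem over root, against 0.58%. Upper quartile scaling gave 1 for leaf over root, against 0.23%. DESeq2 called 34 members for leaf over root and 17 for stem over root, all higher in the shoot, where it called 3.9% and 3.25% of all transcripts higher and 3.48% and 2.89% lower.

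Leaf, stem and root of 1 seedling share a number, and with the seedling as a block in the same edgeR model the calls changed. For leaf over root 30 members were then called, all higher in leaf, where 1.84% of all transcripts were called higher and 1.6% lower. Their log2 fold changes ranged from 1.64 to 8.08. For stem over root 2 members were called higher in stem, where 0.225% of all were higher and 0.112% lower, and both were also among the 30, where 0.162% of all transcripts were called in both comparisons. Leaving out arid root 1, the root library with the most shoot transcripts, moved the medians without the block to 2.51 for leaf over root and 2.44 for stem over root. Without arid root 1 and without the block there were 3 and 0 members called, where 0.219% of all transcripts were higher in leaf and 0.161% lower, and 0% higher or lower in stem. With the block there were 49 and 10, where 2.42% of all transcripts were higher in leaf and 1.15% lower, and 0.317% higher in stem and 0.0804% lower. Without both arid root 1 and arid stem 2 the counts were 8 and 1, where 0.793% of all transcripts were higher in leaf and 0.56% lower, and 0.0171% higher in stem and 0.0342% lower. Without arid stem 2 alone and without the block the counts were 5 and 2, and the stem over root median was 1.84. Of 40970 transcripts then tested, 208 were higher in leaf and 268 lower, and 192 were higher in stem and 458 lower. Without arid root 2, the root lowest in members, the medians were 1.17 and 1.02.

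**Figure D2:**
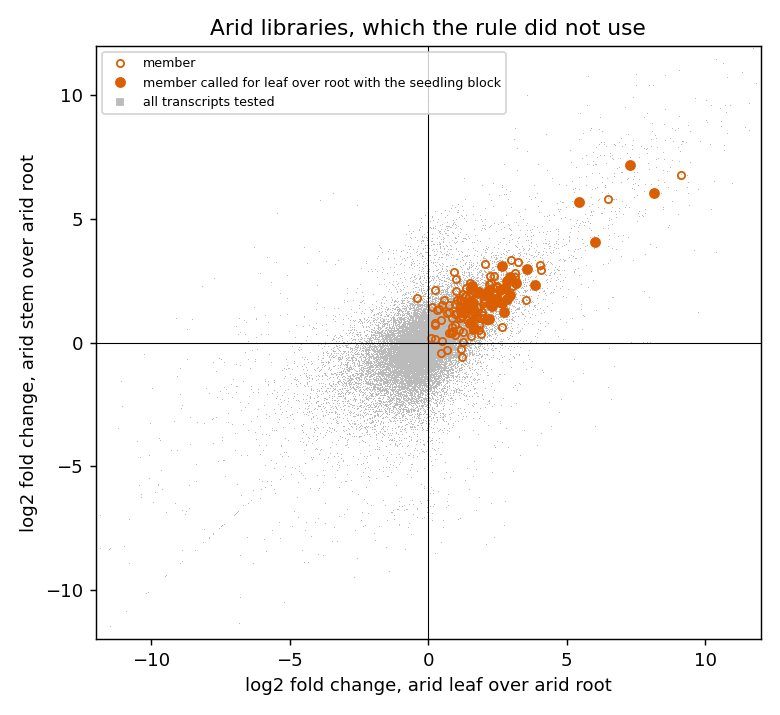
Log2 fold change of arid stem over arid root (vertical) against that of arid leaf over arid root (horizontal) in the edgeR fit of the 9 arid libraries without a block. Grey points are all 38268 transcripts tested and orange circles the members tested, which lie almost wholly in the upper right; filled circles mark the 30 called for leaf over root with the seedling block. The 2 axes share the arid root libraries, so the diagonal is in part built in, and a few grey points beyond 12 on either axis are not shown.

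The pair called in both comparisons with the block is named after its values were seen. Ag_10434 had 78.1, 34.1 and 50.4 CPM in arid leaves 1, 2 and 3. Its arid stems had 60.0, 16.3 and 40.4 CPM, and its arid roots 15.6, 1.87 and 6.47 CPM. Every root lay below every shoot library. With the block, leaf over root had a log2 fold change of 3.18 with an SE of 0.41 (edgeR adjusted p 0.012), and stem over root one of 2.68 with an SE of 0.40 (adjusted p 0.045). Without the block the edgeR adjusted p-values were 0.097 and 0.16. Ag_19320 had 47.7, 21.8 and 51.9 CPM in arid leaves and 92.0, 44.2 and 49.9 CPM in arid stems. Its arid roots had 22.2, 4.45 and 16.8 CPM, so that the highest root overlapped the lowest leaf, while every stem exceeded every root. With the block, leaf over root stood at 1.71 on the log2 scale with an SE of 0.37 (edgeR adjusted p 0.046), and stem over root at 2.49 with an SE of 0.38 (adjusted p 0.045).

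The 2 members of highest score were not called in the arid forest. Ag_23852 had 854, 775 and 831 CPM in arid leaves, 1249, 95.7 and 552 CPM in arid stems, and 563, 2.58 and 209 CPM in arid roots. Leaves were close together, whereas stems and roots spread widely and overlapped. Leaf over root had a log2 fold change of 1.78 with an SE of 1.27 (edgeR adjusted p 0.60). Ag_23709 also spread widely, with 577, 2.80 and 168 CPM in arid roots 1, 2 and 3 beside 581, 612 and 495 CPM in the own leaves.

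At the low end, 2 members had the smallest mean of both log2 fold changes. Ag_24660 had 53.7, 67.6 and 109 CPM in arid leaves and 32.3, 40.0 and 42.1 CPM in arid stems. Its arid roots had 73.0, 34.7 and 71.9 CPM, within the range of the shoot, after 1.33, 6.53 and 2.72 CPM in humid roots. Leaf over root had a log2 fold change of 0.47 with an SE of 0.39 (edgeR adjusted p 0.67), and stem over root one of -0.43 with an SE of 0.39 (adjusted p 0.65). Ag_43958 had 28.6, 14.0 and 24.5 CPM in arid leaves and 28.9, 7.60 and 28.6 CPM in arid stems. Its arid roots 1, 2 and 3 had 52.0, 2.85 and 11.2 CPM, so only arid root 1 lay above the shoot. Leaf over root had a log2 fold change of 0.11 with an SE of 0.84 (edgeR adjusted p 0.98).

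How far the root lay below the shoot differed between the arid seedlings. The root level was expressed as a percent of the mean of leaf and stem of the same seedling. In arid seedlings 1, 2 and 3 the median over members was 52.5%, 8.27% and 33.7%. The quartiles were 36.7% and 67.0% in seedling 1, 2.76% and 16.0% in seedling 2, and 20.2% and 52.3% in seedling 3. Root levels under 10% of the own shoot were found for 7 members in seedling 1, 85 in seedling 2 and 17 in seedling 3. The order of seedlings 1, 3 and 2, from the highest percent to the lowest, held in 105 of the 150 members. The highest arid root CPM was that of root 1 in 134 members and the lowest that of root 2 in 141. Among all Ag_ transcripts tested, root 1 was highest in 36.5% and root 2 lowest in 42.5%.

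For the humid forest the same percent was 3.92%, 1.84% and 0.961% in seedlings 1, 2 and 3, which the rule had selected. It was therefore also read in a humid seedling that the choice did not use. With seedling 1, 2 or 3 left out of the rule and 150 transcripts chosen on the other two, the left-out seedling had a median of 5.40%, 2.45% and 1.29%, with 0.1 CPM added to each level. With the same addition the arid medians were 52.6%, 8.87% and 33.8%. By these medians the 3 arid seedlings lay above the 3 left-out humid ones. The lists were not the same, since each re-chosen one shared 118 to 120 of its 150 transcripts with the members. Left-out humid seedling 1 came closest, with quartiles of 1.79% and 11.7%. These overlapped the quartiles of arid seedling 2, which were 2.76% and 16.0% without the addition. Over all Ag_ transcripts tested the root percent had medians between 80.3% and 113% in the 6 seedlings.

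**Figure D3:**
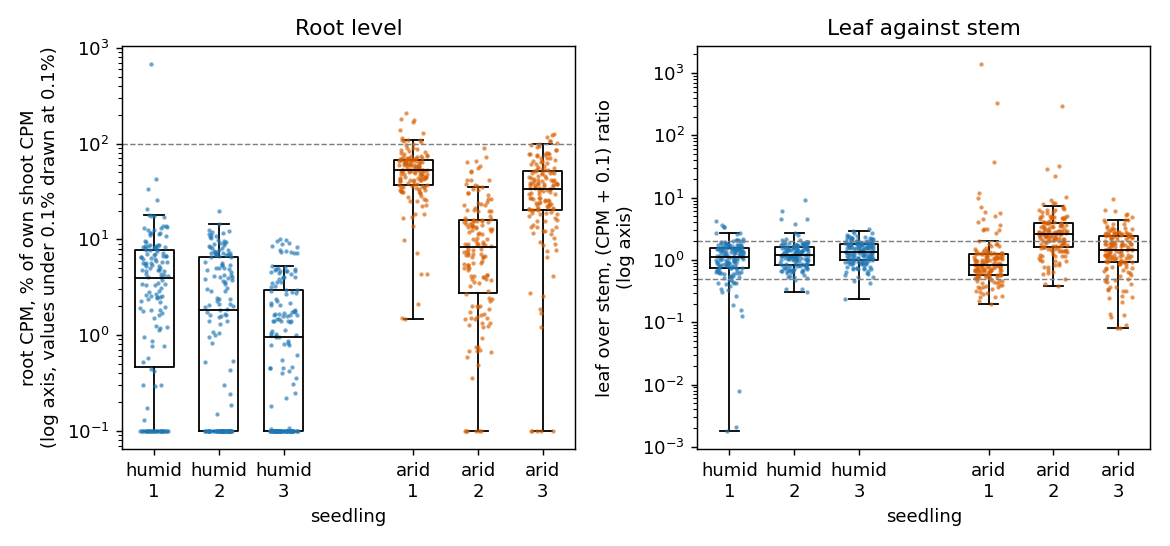
Left, root level of each member as a percent of the mean of leaf and stem of the same seedling, with medians of 52.5%, 8.27% and 33.7% in arid seedlings 1, 2 and 3. Right, leaf over stem ratio in the same seedling after adding 0.1 CPM, where dashed lines mark 2-fold (on the left, 100%) and arid seedling 2 lies mostly above them. Each point is 1 member, boxes show the median and quartiles, whiskers reach the last point within 1.5 times the interquartile range, and humid values entered the rule. A member with no read in leaf and stem of arid seedling 1 is missing on the left.

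Other lists of 150 Ag_ transcripts from the same humid libraries showed which transcripts accompanied the members in the arid roots. Leaf-led transcripts had a humid leaf mean over 2-fold above stem and the largest excess of leaf over stem and root. Stem-led ones were chosen likewise on the stem, and root-led ones had the largest excess of root over both shoot organs. In arid roots 1, 2 and 3 the members had median levels of 34.2, 2.58 and 18.6 CPM. The leaf-led list had 14.4, 0.302 and 0.438 CPM in these roots, beside 13.7, 16.4 and 22.1 CPM in the own leaves. As a percent of the own leaf, the median leaf-led transcript stood at 69.5%, 3.32% and 5.79% in arid roots 1, 2 and 3. The stem of seedling 1 had a leaf-led median of 0.42 CPM. Arid root 3 had members at 33.7% of the own shoot. Stem-led transcripts had medians of 7.24, 4.55 and 7.12 CPM in arid roots 1, 2 and 3, and between 1.36 and 2.93 CPM in humid roots. The root-led list, at 42.3, 32.6 and 66.0 CPM in humid roots 1, 2 and 3, had 2.60, 13.1 and 3.51 CPM in arid roots. The arid root with the fewest shoot transcripts was therefore the one with the most root-led ones. Whether shoot RNA was present in these root libraries, and had a part in the levels of the members, was not tested.

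**Figure D4:**
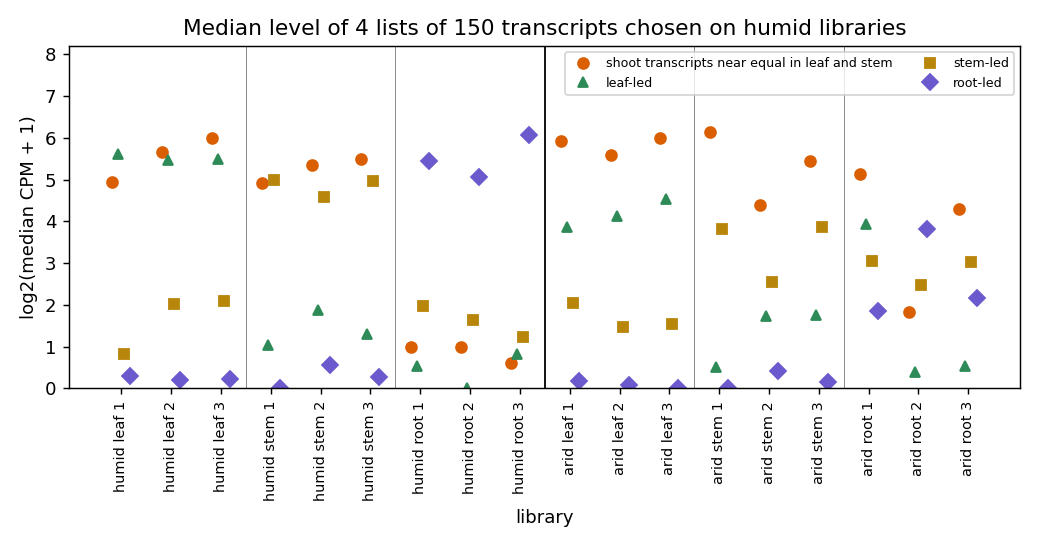
Median level, as log2(median CPM + 1), of 4 lists of 150 transcripts in each of the 18 libraries. The humid panels show the choice of the lists, and among arid libraries the members reach 34.2 and 18.6 CPM in roots 1 and 3, leaf-led transcripts reach 14.4 CPM in root 1 only, and root-led ones are highest in root 2.

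Of the 150 members, 62 stood at 10% or more of the own shoot in all 3 arid roots, and 6 stood under 10% in all 3. A pair of these 6 is shown, of which Ag_12136 was picked after its values were seen. Ag_12136 had 26.8, 54.1 and 82.2 CPM in arid leaves and 2.66, 78.9 and 57.0 CPM in arid stems. Its arid roots had 0.635, 0.439 and 0 CPM, all below the lowest shoot value, that of arid stem 1. In seedling 1 the root had 5 reads and the stem 38. Leaf over root stood at 7.27 on the log2 scale with an SE of 1.37 (edgeR adjusted p 0.051), and with the block at 7.34 with an SE of 1.24 (adjusted p 0.024). Ag_15890 had 138, 157 and 149 CPM in arid leaves, 0, 4.76 and 72.0 CPM in arid stems, and 1.02, 0 and 0 CPM in arid roots. In seedling 1 its root, with 8 reads, lay above the own stem, with 0, so the low percent there rests on the leaf. Leaf over root stood at 9.12 on the log2 scale with an SE of 2.28 (edgeR adjusted p 0.10). Both had low root levels in arid root 1, where the median member stood at 52.5% of its shoot.

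**Figure D5:**
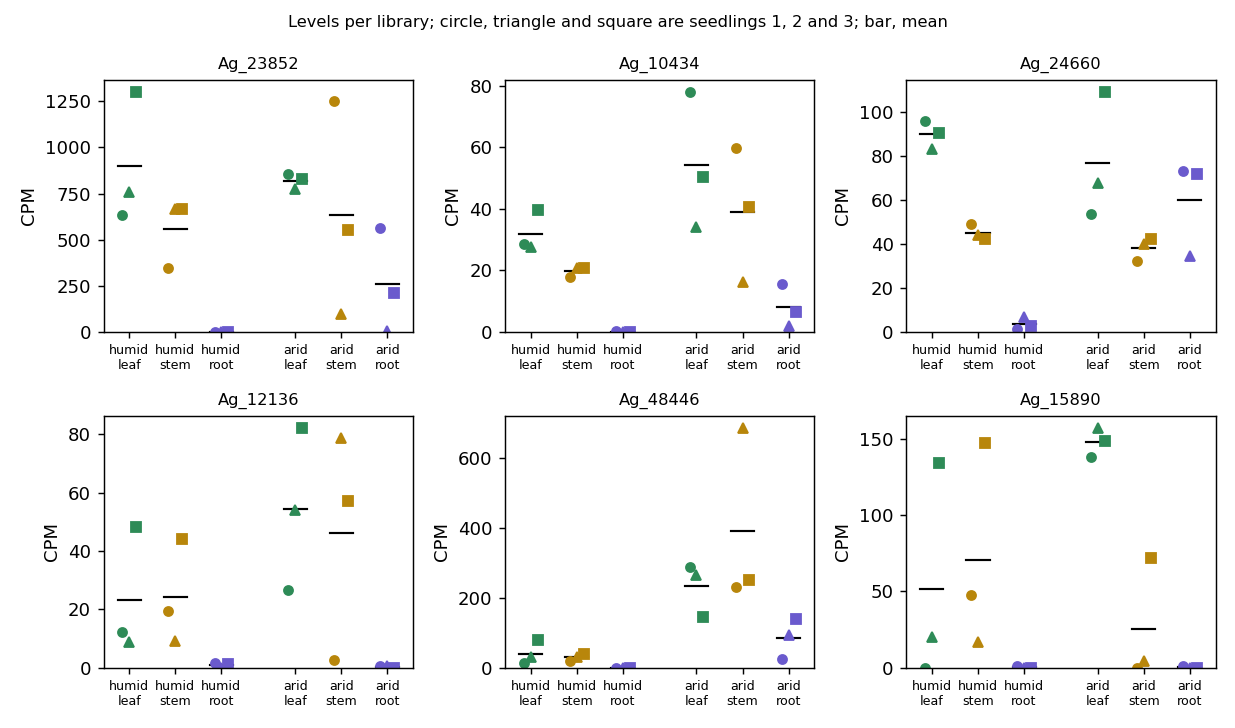
CPM in each library for 6 of the transcripts described, with humid groups left and arid groups right in each panel; the bar is the mean of 3 seedlings. Arid roots are near 0 for Ag_12136 and Ag_15890, within the range of the shoot for Ag_24660, and spread from 2.58 to 563 CPM for Ag_23852.

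Whether leaf and stem stayed near equal was the next comparison. By group means, 114 of the 150 members were within 2-fold in the arid forest. Of the 18103 tested Ag_ transcripts that met the same limit in the humid forest, 82% did so. Leaf exceeded stem by over 2-fold in 29 members, against 13.1% of those transcripts, and stem exceeded leaf by over 2-fold in 7, against 4.84%. Without arid stem 2 the counts were 114 within 2-fold, against 74.2%, 19 with leaf over stem, against 20.04%, and 17 with stem over leaf, against 5.74%. By edgeR no member was called between arid leaf and arid stem, where 0% of all transcripts were called higher in leaf and 0.00784% lower. With the block none was called either, where 0.0131% of all were higher and 0.0366% lower. DESeq2 called none of the members, and 1.34% of all transcripts higher and 2.16% lower. The median log2 fold change of the members was 0.27, against -0.02 over all, and 92 members were above 0, against 49% of all. An unadjusted p under 0.05 was found for 5 members, all higher in leaf, where 5.01% of all transcripts were higher and 6.2% lower. The median SE of a member was 0.83 on the log2 scale, which limits what could be detected in single members.

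Within seedlings the balance of leaf and stem was uneven. The median ratio of leaf to stem was 0.843 in arid seedling 1, 2.64 in seedling 2 and 1.45 in seedling 3. Over all Ag_ transcripts tested it was 1.17, 1.06 and 1.13, with 0.1 CPM added. In seedling 2 the leaf exceeded the stem by over 2-fold in 99 members, against 18 in seedling 1 and 48 in seedling 3. The stem led by over 2-fold in 24, 3 and 22 members of seedlings 1, 2 and 3. The shares of all Ag_ transcripts over 2-fold within a seedling were not taken, so these counts are not read as particular to the members. In humid seedlings, whose means entered the rule, the ratio had medians of 1.11, 1.19 and 1.37. Arid stem 2 was the lowest arid stem in 121 members, against 39.3% of all Ag_ transcripts, and arid stem 1 the highest in 112, against 36.4%. Without arid stem 2 the median log2 fold change of leaf over stem in the edgeR fit was -0.09. The slight excess of leaf in the fit was thus not seen without that library. By median ratio, stem led in seedling 1, at 0.843, and leaf in seedling 3, at 1.45.

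The members with the most unequal leaf and stem in the arid fit were not called. Ag_15890, which had the highest log2 fold change of leaf over stem, 2.35 with an SE of 1.59 (edgeR adjusted p 0.62), had 0, 4.76 and 72.0 CPM in arid stems 1, 2 and 3. Ag_42610 followed with an edgeR adjusted p of 0.58, with 33.5, 8.02 and 64.0 CPM in arid leaves and 0, 8.35 and 13.0 CPM in arid stems. In both, arid stem 1 had no read while the leaf of that seedling had many. At the other end, Ag_17794 had 23.2, 1.72 and 3.27 CPM in arid leaves and 75.3, 4.34 and 37.3 CPM in arid stems. In each seedling the stem was higher, but the seedlings overlapped, and leaf over stem was -2.24 on the log2 scale with an SE of 1.24 (edgeR adjusted p 0.54). Ag_10244 had 3.91, 4.97 and 19.3 CPM in leaves and 20.1, 5.26 and 72.5 CPM in stems. Leaf over stem was -1.91 on the log2 scale with an SE of 0.96 (edgeR adjusted p 0.49). With the block both remained uncalled, at edgeR adjusted p-values of 0.14 and 0.21.

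Spread among seedlings was described by the coefficient of variation of CPM over the 3 libraries of a group, as a median over members. It was 38.4% in arid leaves, 70.4% in arid stems and 86.1% in arid roots. All Ag_ transcripts tested had medians of 35.3%, 50.2% and 32.7%. The members' median was close to that of all transcripts in arid leaves and well above it in arid roots. In the humid forest the members' medians were 43.2% in leaves, 34.7% in stems and 88.6% in roots, against 33.5%, 26.6% and 34.9% over all. The median was thus high in the roots of both forests, but the rule had chosen the members for low humid roots. Their median humid root level was 0.967 CPM, and 31 members had 3 reads or fewer over the 3 humid roots together. In arid roots 1, 2 and 3 the median levels were 34.2, 2.58 and 18.6 CPM. The part of counting error in the humid root spread was not tested. Humid seedling 1 was the lowest of the 3 in 109 members in leaf and in 114 in stem, against 53.0% and 39.0% of all Ag_ transcripts tested.

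Levels in the 2 forests were set side by side without a test, since the humid libraries had chosen the members. The log2 ratio of arid to humid mean, with 1 CPM added to each, had a median of 0.19 over members in leaf, with quartiles of -0.22 and 0.60. All Ag_ transcripts tested had a median of 0.02 in leaf. In stem the median was 0.16, with quartiles of -0.35 and 0.67, against -0.31 over all. In root it was 2.98, with quartiles of 2.25 and 3.83, against 0.04 over all. The low humid root level was a condition of the rule, and the arid root values depended on the seedling, with medians of 3.73, 0.66 and 3.02 for roots 1, 2 and 3 against the humid mean. The same medians were 0.77, -1.31 and 0.18 in stem and 0.15, -0.16 and 0.28 in leaf, so that seedling 2 was below 0 in both. Without arid stem 2 the stem median was 0.52, and without arid stem 1 it was -0.40. Over all alternatives the stem median ranged from -0.40 to 0.58. These ratios used CPM by library total. The scaling factors of edgeR over all libraries were 1.23, 1.21 and 1.17 in humid stems 1, 2 and 3. They were 0.98, 0.86 and 0.79 in arid stems. Dividing by them would raise the stem ratio for the members and for all transcripts, so the stem values depend on the scaling. Without arid root 1 the root median was 2.33.

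The 3 arid leaves exceeded all 3 humid leaves for 13 members, against 5.82% of Ag_ transcripts, and were below them for 5, against 7.97%. In stem these counts were 7, against 3.35%, and 12, against 26.2%, on CPM by library total, and they too depend on the scaling. In root they were 98, against 13.2%, and 1, against 12%, and nothing is read from these since low humid roots were selected. The arid mean was higher than the humid one in both leaf and stem for 70 members and lower in both for 35. Leaf and stem differed in sign for 45. Without arid stem 2, 77 were higher in both and 25 lower in both. The arid and humid means were over 2-fold apart in 26 members in leaf and 42 in stem, or 53 in stem without arid stem 2. For these counts by forest means the share over all Ag_ transcripts was not taken. Nothing particular to the members is therefore read from them.

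The largest arid levels relative to humid ones in the shoot were those of Ag_20313 and Ag_48446. Ag_20313 had 19.7, 15.4 and 43.5 CPM in humid leaves and 412, 77.5 and 71.8 CPM in arid leaves. Its stems had 12.9, 23.0 and 30.9 CPM in the humid and 677, 91.8 and 72.2 CPM in the arid forest. Every arid shoot library exceeded every humid one, with seedling 1 by far the highest. Ag_48446 had 12.4, 31.3 and 78.5 CPM in humid and 289, 266 and 145 CPM in arid leaves. In stems it had 18.2, 30.1 and 40.7 CPM in the humid and 232, 685 and 251 CPM in the arid forest. Here arid stem 2 was the highest library, the reverse of most members. Its arid roots had 25.7, 92.8 and 139 CPM, so that arid root 1 was the lowest, again unlike most members, which were highest there.

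The smallest were those of Ag_10718 and Ag_42610. Ag_10718 had 69.4, 20.8 and 11.5 CPM in humid leaves and 103.4, 3.35 and 48.7 CPM in humid stems. In the arid forest it had 0, 29.4 and 0 CPM in leaves and 0, 0 and 0.659 CPM in stems. It was thus present in 1 arid leaf only, and arid root 1 had 14.7 CPM of it although leaf and stem of the same seedling had no read. Ag_42610 had 0.11, 151 and 71.4 CPM in humid leaves and 26.5, 33.4 and 154 CPM in humid stems. Its arid roots had 0.254, 0.11 and 0 CPM, below its humid roots at 5.64, 3.92 and 10.1 CPM. It was among the 3 members whose log2 ratio of arid to humid in root was not above 0, the other 147 being above.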

How the data were processed

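The authors deposited raw counts of reads for every transcript, not normalized. A joint table and 18 single-library files held equal values. By the table's name the counts are of uniquely mapped reads, and the submitters' processing notes name Bowtie 0.12.2 and edgeR without a role. The reference transcriptome is not given in the sources used here. Uniquely mapped reads leave out those shared by near copies, so the level of a transcript with a near copy is uncertain. Library totals ranged from 3.07 to 23.7 M reads. Replicates differed by more than sampling noise, with a chi-square per degree of freedom of at least 18.3.

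CPM was the count over the column total. The 9 arid libraries were fitted in edgeR 4.0.16 (R 4.3.3) and tested by quasi-likelihood, with trimmed mean of M-values factors, a group minimum count of 10, a minimum total of 15 and 6 residual degrees of freedom. P-values were adjusted over all tested transcripts by Benjamini-Hochberg, with calls at 0.05. The SE is the absolute log2 fold change over the root of the F statistic. DESeq2 1.42.0, other scalings, no filter, all 18 libraries, the seedling as a block and leaving out libraries were alternatives. The series describes 3 organs per seedling, so equal numbers within a forest were taken as 1 plant. Deviations from group means correlated between organs of a seedling by 0.143 to 0.347 in the 9 arid pairs and by -0.0729 to 0.279 in the 9 humid pairs. On simulated arid counts over 36280 transcripts without a block, edgeR recovered 44% of those changed 16-fold and 6% of those changed 4-fold for leaf over root, and 45% and 4% for stem over root. P-values of the fits without a block measure the spread between these seedlings. With the block they measure the spread left after the shift of each seedling is taken out, on fewer residual degrees of freedom.

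The members and lists were chosen with earlier results of these data known. Named transcripts were the 2 of highest score, those at the border, those lowest for shoot over root, and those highest and lowest for leaf over stem and for arid over humid in the shoot, at most 2 each way. The rule also named members called in both shoot comparisons without the block, of which there were 0. Lists of known marker genes were not used here, since identifiers have no names. Figures were drawn with matplotlib 3.10.9.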

Additional observations from a re-analysis of the deposited data

Results flagged for a closer look

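Transcripts with the prefix non_cod were outside the rule. Of these, 21 met its conditions with a score at or above that of the last member, up to a score of 6.65, which is a signal in rows that the comparisons did not use. Their median level was 32.9, 37.2 and 46.8 CPM in arid leaves 1, 2 and 3, and 51.5, 13.3 and 52.0 CPM in arid stems. In arid roots 1, 2 and 3 it was 30.5, 2.47 and 13.5 CPM, or 61.8%, 12.8% and 27.4% of the own shoot as a median over the 21, with 0.1 CPM added. Arid stem 2 and arid root 2 were thus the lowest of their groups, as for the 150 members. Single values far from the others were not looked for, since every group held 3 libraries.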

How the results depend on the processing

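Counts of members called depended on the fit, while no setting called a member lower in shoot than in root, or different between leaf and stem. The main counts were 0 for leaf over root and 0 for stem over root. They became 30 and 2 under a replicate block by seedling, and 34 and 17 with DESeq2. With all 18 libraries in the fit they were 16 and 4. That fit includes the humid libraries that chose the members, so its calls are a description only. Upper quartile scaling gave 1 for leaf over root. Leaving out single libraries gave 0 to 6 for leaf over root and 0 to 3 for stem over root, the most without arid stem 1, while 0% to 0.508% and 0% to 0.469% of all transcripts were called higher over these fits. Alternatives chosen after seeing the data gave 8 and 1 without both arid root 1 and arid stem 2, and 49 and 10 without arid root 1 under the block. The median log2 fold change of stem over root ranged from 1.02 to 2.44 when single libraries were left out, and was 2.79 and 2.37 under those 2 added alternatives. That of leaf over root ranged from 1.17 to 2.84 and that of leaf over stem from -0.09 to 0.69 over all alternatives. The number within the fold limit in arid leaf and stem ranged from 81 to 136 over alternatives that did not all use 2-fold. The count of 136 belongs to a 3-fold limit. Without seedling 1 the number was 84. Of the members, 87 were kept with a pseudocount of 0.1 CPM, 98 with a 1.5-fold limit, 97 with a 3-fold limit, and 118 to 120 when a humid seedling was left out. For named members 7 of 272 alternative values changed sign, none of them called. Ag_24660 for stem over root became 0.064 without arid root 1 under the block. With single libraries left out, Ag_43958 ranged from -0.41 to 1.81 for leaf over root and from -0.33 to 1.89 for stem over root. The cause was not tested. In simulated arid data 44% of 16-fold differences between leaf and root were recovered, so a missing call does not show equal levels.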
